A study of Mus musculus with 6 samples.

Results

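A set of 10 genes of the Notch pathway was examined: the receptors *Notch1*, *Notch2*, *Notch3* and *Notch4*, the ligands *Jag1*, *Jag2* and *Dll1*, and the target genes *Hes1*, *Hey1* and *Heyl*. They were chosen by name as the core of the pathway, and they are 10 of the 16279 genes listed for at least one of the cell types. Both tables list 8 of them, and *Dll1* and *Heyl* are listed for CPCCs only. The data are bulk RNA-seq of male F1 mouse embryonic stem cells (mESCs) from a C57BL/6 x CAST/EiJ cross and of cardiac precursor cell cultures (CPCCs), with 3 libraries of each. The mESCs were held in the naive state with 2 kinase inhibitors and LIF, and the study used single clones of lines from 3 blastocysts. The CPCCs came from those clones through embryoid bodies treated with ascorbic acid, followed by passages in medium with EGF and Fgf2, and they are mixed cultures rather than 1 cell type. Age does not apply to these cultures. The tables name their columns S01, S02 and S03 (mESCs) and S04, S05 and S06 (CPCCs) without a replicate number, and no CPCC library can be tied to its parent clone.

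Notch receptors are single-pass membrane proteins that are activated by ligands of the Jagged and Delta-like families on a neighbouring cell. Binding exposes the receptor to cleavage by an ADAM protease and then by the gamma-secretase complex, which frees the intracellular domain to enter the nucleus. There it joins the DNA-binding protein RBPJ and a Mastermind coactivator and switches on genes such as the HES and HEY repressors. In the developing heart the pathway is known for its roles in the endocardium, the valves and the outflow tract, and in vessels NOTCH3 is known for its role in smooth muscle cells and pericytes.

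The mESC libraries held between 6442639 and 6907330 counts and the CPCC libraries between 8468819 and 11436062, the last in S04. Levels are given as CPM, the counts of a gene in every 1000000 counts of the library. A level of 3 counts in 1 library, which equals 0.262 to 0.466 CPM, was taken as the floor. All 8 stem cell markers examined, among them *Nanog*, *Esrrb* and *Zfp42*, were listed for both cell types, and their sum was 3831 to 4054 CPM in mESCs and 112 to 208 CPM in CPCCs. Of 10 cardiac markers, 9 were listed for CPCCs, with sums of 146, 47.5 and 70.4 CPM in S04, S05 and S06, against 3.97 to 4.63 CPM in mESCs. *Tnnt2* was the highest, at 90.2, 23.3 and 29.2 CPM in these CPCC libraries. *Mef2c* (17.0, 9.64 and 13.2 CPM), *Myh6* (18.6, 5.18 and 9.45 CPM) and *Myh7* (7.18, 3.65 and 6.14 CPM) were listed for CPCCs only. *Tbx5* was not listed for CPCCs, and *Nkx2-5* did not exceed 1.40 CPM in a CPCC library. *Gata4* was at 1.75, 2.71 and 5.79 CPM there, and *Isl1*, *Hand1* and *Hand2* did not exceed 5.95 CPM. Of 8 smooth muscle and pericyte markers, all 8 were listed for CPCCs, and their sum was 6253 to 9914 CPM, most of it *Acta2* and *Tagln*, against 4.12 to 10.6 CPM in mESCs. Neural markers summed to 505 to 630 CPM in CPCCs and 40.8 to 46.4 CPM in mESCs, with 7 of 8 and 4 of 8 listed. The CPCC name is therefore used below as the label of the cultures and not as a statement about every cell in them. In bulk RNA, fewer cells of a type cannot be told apart from less RNA per cell, and this holds for each difference given below.

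Promoter windows of the members, from 250 bases before to 50 bases after the start of the transcript, were read from RefSeq (GRCm38.p6). A window was given for 7 of the 10 members, all but *Hes1*, *Hey1* and *Heyl*, and *Dll1* had 2. The windows were searched on both strands for the RBPJ core TGGGAA, its longer form GTGGGAA, which contains the core, the E-box CACGTG, and CACGCG, the class C site bound by HES and HEY proteins. None of the 8 windows held the RBPJ core, its longer form or the E-box. Of all 32851 windows of that length, 25.6% held the core, 6.38% its longer form and 7.15% the E-box. CACGCG was found in 9.27% of all windows and in 4 of the 8 windows of members, those of *Jag1*, *Notch2*, *Jag2* and the second start of *Dll1*. The 8 windows had a GC content of 55.7% to 86.0%, against a median of 52.7% over all windows, and the part of GC content in this share was not tested. The windows of the ligand with the highest CPCC level, of the receptor with the largest rise and of the receptor that fell are shown, since these 3 genes carry most of what follows. Capitals mark CACGCG or its reverse complement CGCGTG, and each sequence reads 5′ to 3′ on the strand of the gene. The *Jag1* window is chr2:137116471-137116770 (minus strand), the *Notch3* window is chr17:32166841-32167140 (minus strand) and the *Notch4* window is chr17:34564045-34564344 (plus strand).
Jag1: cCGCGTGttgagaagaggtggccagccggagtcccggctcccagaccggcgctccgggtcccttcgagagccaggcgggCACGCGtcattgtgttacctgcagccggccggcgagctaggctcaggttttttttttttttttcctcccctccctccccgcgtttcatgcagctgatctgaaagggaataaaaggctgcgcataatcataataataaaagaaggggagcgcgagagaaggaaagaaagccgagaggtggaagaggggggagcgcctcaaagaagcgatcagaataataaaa
Notch3: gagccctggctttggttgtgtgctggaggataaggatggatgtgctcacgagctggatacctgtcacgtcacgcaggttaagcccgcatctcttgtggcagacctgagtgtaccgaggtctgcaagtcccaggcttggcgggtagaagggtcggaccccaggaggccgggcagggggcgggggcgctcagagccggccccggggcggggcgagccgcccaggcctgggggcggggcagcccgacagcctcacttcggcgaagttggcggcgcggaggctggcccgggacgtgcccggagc
Notch4: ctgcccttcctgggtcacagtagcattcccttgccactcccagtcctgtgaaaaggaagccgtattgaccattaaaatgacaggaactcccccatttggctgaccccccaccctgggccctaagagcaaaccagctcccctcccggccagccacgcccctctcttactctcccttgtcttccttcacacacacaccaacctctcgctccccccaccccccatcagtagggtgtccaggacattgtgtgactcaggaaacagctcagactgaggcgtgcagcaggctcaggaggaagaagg
The *Jag1* window held 2 matches, 249 and 171 bases before the start, and the *Notch3* and *Notch4* windows held none. A match describes these letters only and is not a measured binding site.

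The first question was how the receptors differed between the cell types. All 4 receptor genes differed. *Notch1*, *Notch2* and *Notch3* were higher in CPCCs, and *Notch4* was lower. *Notch1* (chromosome 2, 26457902 to 26503823, minus strand, 34 exons in the longest coding transcript of GENCODE, as counted for all members) encodes the receptor with the broadest known use. It was at 40.4, 34.1 and 33.2 CPM in mESCs and at 78.9, 128 and 129 CPM in CPCCs. Every CPCC library lay above every mESC library, with S04 the lowest of the CPCCs. The log2 fold change was 1.69 (SE 0.20, adjusted p = 0.000131). Here and below, adjusted p-values are those of the quasi-likelihood test of edgeR, adjusted by the method of Benjamini and Hochberg over every gene tested. *Notch2* (chromosome 3, 98013538 to 98150368, plus strand, 34 exons) was at 21.4, 25.8 and 21.6 CPM in mESCs and at 53.2, 70.7 and 59.7 CPM in CPCCs. Its log2 fold change was 1.47 (SE 0.19, adjusted p = 0.000199 from edgeR), again with no overlap between the groups.

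*Notch3* (chromosome 17, 32120893 to 32166853, minus strand, 33 exons) rose most among the receptors. Its mESC libraries were at 8.38, 7.95 and 5.94 CPM and its CPCC libraries at 45.6, 61.5 and 57.7 CPM. The mean was 7.42 ± 1.31 CPM in mESCs and 54.9 ± 8.34 CPM in CPCCs (SD, n = 3 each), and the log2 fold change was 2.94 (SE 0.23, adjusted p = 1.15e-05 from edgeR). Of all genes tested, 92.5% had a lower log2 fold change. The smooth muscle and pericyte markers *Acta2*, *Pdgfrb*, *Cspg4* and *Des* rose in the same libraries, with log2 fold changes of 12.31, 5.06, 5.76 and 3.60. *Pdgfrb*, a receptor of pericytes and smooth muscle cells, was at 78.2, 121 and 67.0 CPM in S04, S05 and S06. The part of such cells in the rise of *Notch3* was not tested. An antisense gene, *Gm17276*, is annotated across 20951 bases of *Notch3*, and whether the counting used the strand is not given in the sources used here, so reads of the pair cannot be told apart. Genes on the opposite strand are also annotated over short stretches of *Notch1*, *Notch4* (a processed pseudogene) and *Dll1*. On the same strand, *Gm42819* and *Gm42820* are annotated over 5121 and 3063 bases of *Notch2*, and a microRNA gene lies in *Notch1* and in *Jag2*. None of these overlapping genes is listed for either cell type.

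*Notch4* (chromosome 17, 34564295 to 34588544, plus strand, 30 exons) encodes a receptor known mainly from endothelial cells, and it was the only member that fell. It was at 26.1, 12.5 and 26.2 CPM in mESCs and at 9.62, 8.70 and 8.86 CPM in CPCCs. S02 stood well below the other mESC libraries but still above every CPCC library. The log2 fold change was −1.18 (SE 0.33, adjusted p = 0.0123 from edgeR). The call rested on 2 mESC libraries: without S01 the log2 fold change was −1.04 (adjusted p = 0.0535) and without S03 it was −1.01 (adjusted p = 0.0527), and neither passed the threshold of 0.05. Of 10 endothelial markers, 4 were listed for mESCs and 7 for CPCCs, with sums of 93.7 to 104 CPM in mESCs and 36.1, 17.2 and 23.9 CPM in S04, S05 and S06. *Pecam1* made up most of the mESC sum, at 85.1 to 94.3 CPM, and *Cdh5*, *Kdr*, *Emcn*, *Cldn5*, *Esam* and *Tie1* were not listed for mESCs. *Cldn5* and *Tie1* were not listed for CPCCs either, and *Erg* was listed for mESCs only. *Cdh5*, an adhesion protein that defines endothelial cells, was at 11.0, 1.29 and 1.65 CPM in the CPCC libraries. The part of endothelial cells in the level of *Notch4* was not tested.

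**Figure D1:**
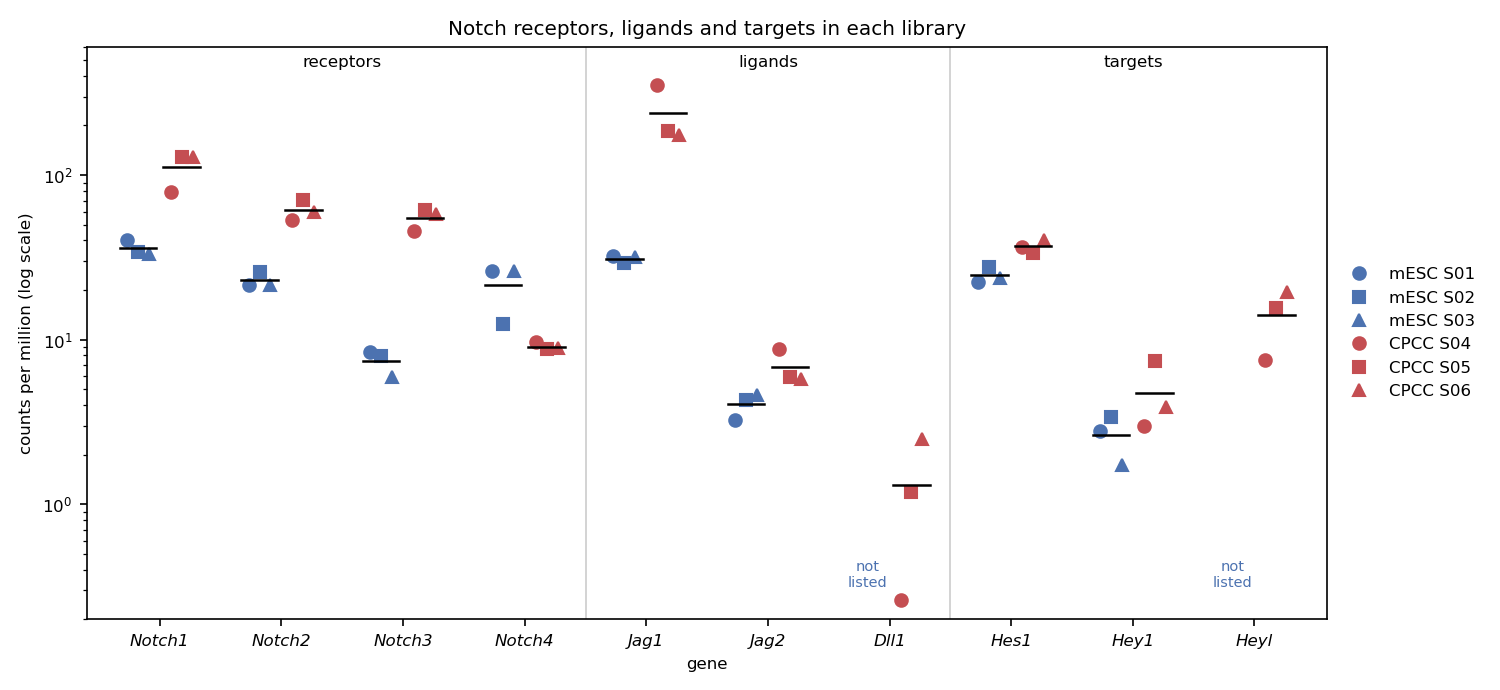
Level of each of the 10 genes in each library, in CPM on a log axis, with mESC libraries in blue, CPCC libraries in red and a black line at the mean of 3 libraries. *Jag1* reaches 354 CPM in S04, *Notch4* is the gene whose CPCC libraries all lie below its mESC libraries, and *Dll1* and *Heyl* are not listed for mESCs.

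Of the ligands, *Jag1* rose, *Jag2* had a smaller difference that did not pass the test, and *Dll1* was listed for CPCCs only. *Jag1* (chromosome 2, 137081451 to 137116521, minus strand, 26 exons), whose loss in people causes Alagille syndrome with heart defects, was at 32.1, 29.1 and 31.9 CPM in mESCs. In CPCCs it was at 354, 186 and 174 CPM. The mESC libraries lay close together, while S04 held about as much *Jag1* as S05 and S06 combined. The log2 fold change was 3.03 (SE 0.33, adjusted p = 7.50e-05 from edgeR). Without S04 it was 2.55 (adjusted p = 7.07e-08), below the 3.02 of *Notch3* in that fit. The mean CPCC level of *Jag1* was above that of 95.3% of the genes listed for CPCCs, and its mean mESC level was above 57.1% of those listed for mESCs.

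*Jag2* (chromosome 12, 112908590 to 112929496, minus strand, 26 exons) encodes the other Jagged ligand. It was at 3.26, 4.27 and 4.63 CPM in mESCs and at 8.74, 5.88 and 5.79 CPM in CPCCs. The groups did not overlap, and S04 was again the highest. The log2 fold change was 0.83 (SE 0.41) and the adjusted p was 0.105 with edgeR, so the difference did not pass the threshold. When genes were kept only with at least 10 counts in every library, it did pass, at a log2 fold change of 0.90 (adjusted p = 0.0491).

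*Dll1* (chromosome 17, 15367354 to 15375824, minus strand, 11 exons) encodes a Delta-like ligand known from somites and neural progenitors. It had 3, 10 and 21 counts in S04, S05 and S06, or 0.262, 1.18 and 2.48 CPM, so S04 was at the floor. The CPCC mean was at least 2.92-fold higher than 3 counts per library would give in mESCs. The test covered only genes in both tables, and with missing genes set to 0 or 3 counts *Dll1* did not pass the filter on low counts. The neural marker *Sox1*, a transcription factor of neural progenitors, had 3.32, 22.7 and 52.4 CPM in the same 3 libraries. S04 was thus lowest and S06 highest for both genes. Other neural markers had other orders, with *Nes* at 296, 397 and 339 CPM and *Tubb3* at 189, 115 and 137 CPM. The part of neural cells in *Dll1* was not tested.

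Of the target genes, *Hes1* rose slightly, *Hey1* did not pass the test and *Heyl* was listed for CPCCs only. *Hes1* (chromosome 16, 30065357 to 30067797, plus strand, 4 exons) encodes a repressor of differentiation genes that also answers to other pathways. It was at 22.5, 27.7 and 23.7 CPM in mESCs and at 36.6, 33.5 and 40.4 CPM in CPCCs. The log2 fold change was 0.64 (SE 0.20, adjusted p = 0.0196 from edgeR), with no overlap. Without S01 it was 0.57 (adjusted p = 0.0788) and without S03 it was 0.62 (adjusted p = 0.05003, just above the threshold), so the call of *Hes1* depended on either of these mESC libraries. *Hey1* (chromosome 3, 8663359 to 8667039, minus strand, 5 exons), a HEY family repressor known from the developing atria, was at 2.79, 3.39 and 1.74 CPM in mESCs and at 2.97, 7.41 and 3.90 CPM in CPCCs. The groups overlapped, and the log2 fold change of 0.90 (SE 0.52) had an adjusted p of 0.163 with edgeR.

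*Heyl* (chromosome 4, 123233556 to 123249871, plus strand, 5 exons), a HEY family gene known from vascular smooth muscle, had 86, 132 and 164 counts in S04, S05 and S06. These equal 7.52, 15.5 and 19.4 CPM, a mean of 14.1 ± 6.04 CPM (SD, n = 3). The mean was at least 31.6-fold higher in CPCCs than 3 counts per library would give in mESCs. With the missing mESC values set to 0 or 3 counts per library it passed the edgeR threshold as higher in CPCCs (adjusted p = 0.000141 and 7.26e-05). Those mESC values were filled in and not measured, so this outcome adds nothing to the bound. As with *Dll1*, S04 was the lowest and S06 the highest. The smooth muscle and pericyte markers had no single order over the same libraries. Their sum, most of it *Acta2* and *Tagln*, was 9914, 8703 and 6253 CPM. *Acta2*, *Tagln*, *Myh11*, *Cnn1*, *Rgs5* and *Des* were each highest in S04, where *Heyl* was lowest. *Pdgfrb* was highest in S05 and lowest in S06. Only *Cspg4*, at 14.9, 59.2 and 39.6 CPM, was lowest in S04 as *Heyl* was. The part of such cells in *Heyl* was not tested.

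Counted over the set, 6 of the 8 genes tested passed the threshold, 5 higher and 1 lower in CPCCs, with a median log2 fold change of 1.18. Over all 12471 genes tested, 61.4% passed in either direction, 31.7% higher and 29.7% lower, and the median was 0.03. For 7 of the 8 members the libraries of the groups did not overlap, 6 with CPCCs above, and 69.3% of all genes tested had no overlap. A share of 5 in 8 stands against 31.7% for rises, but 8 genes are few, and these counts are a description without a test of the set. With 3 libraries in each group an exact permutation test of 1 gene cannot give a two-sided p below 0.1, and that value was reached by all members tested but *Hey1*, at 0.2. The p-values measure the spread between these libraries.

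**Figure D2:**
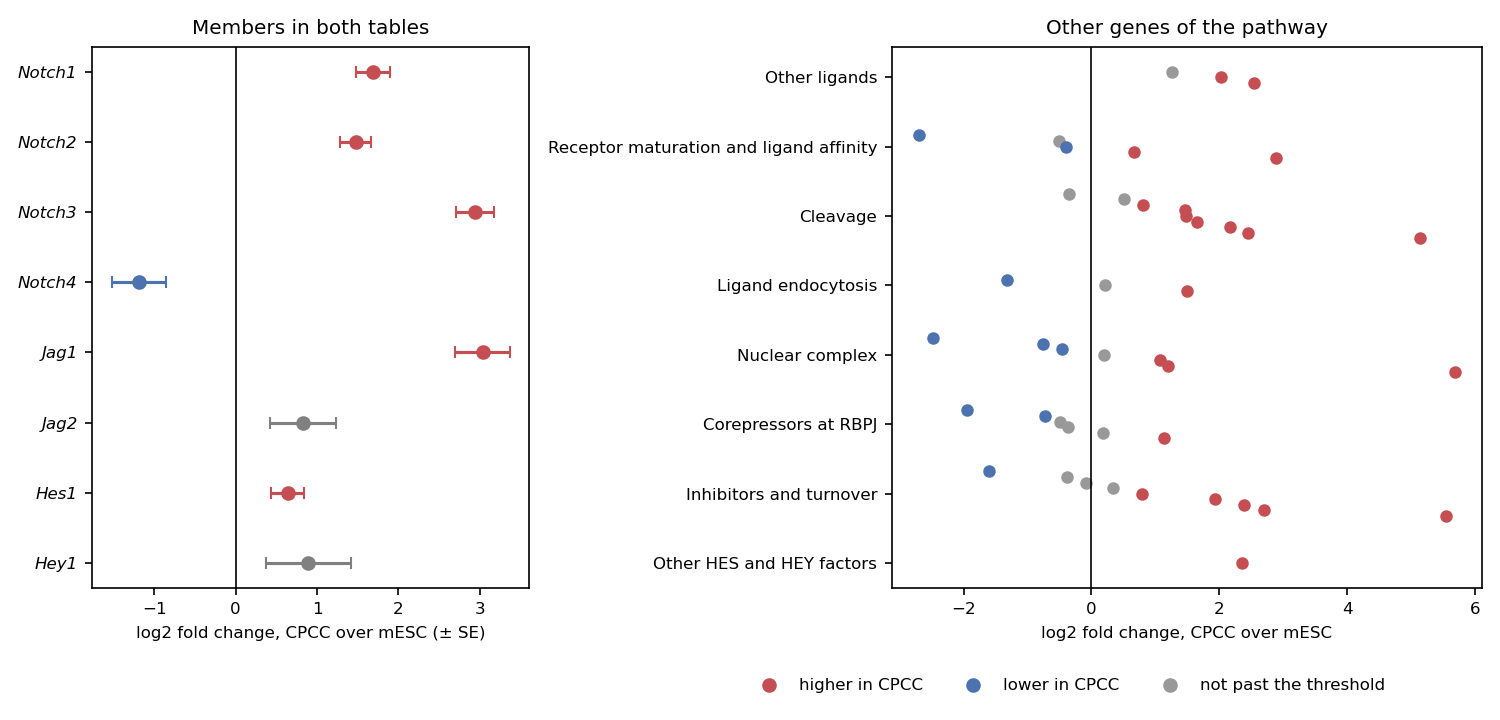
Log2 fold change of CPCC over mESC for the 8 members in both tables with the standard error of the edgeR fit (left), and for the 43 other pathway genes tested, 1 point each, by role (right). Red points passed the threshold as higher in CPCCs, blue as lower and grey did not pass it, and *Notch4* is the only blue member.

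Levels were compared between genes per kilobase of exon, since the coding transcripts differ in length from 1468 bases (*Hes1*) to 10500 bases (*Notch2*). In mESCs *Hes1* was highest at 16.8 ± 1.84 CPM per kilobase, followed by *Jag1* at 5.53 ± 0.294 and *Notch1* at 3.78 ± 0.411 (SD, n = 3 each). *Notch4* came next at 3.28 ± 1.19, and its libraries overlapped those of *Notch1* and of *Notch2* (2.18 ± 0.234). *Hey1* (1.09 ± 0.345), *Notch3* (0.926 ± 0.163) and *Jag2* (0.794 ± 0.139) overlapped each other. In CPCCs *Jag1* came first at 42.4 ± 17.9 CPM per kilobase, ahead of *Hes1* at 25.1 ± 2.34, with the lowest *Jag1* library at 31.1 and the highest *Hes1* library at 27.5. *Notch1* followed at 11.8 ± 3.04, then *Notch3* at 6.85 ± 1.04 and *Notch2* at 5.83 ± 0.843, which overlapped. *Heyl* at 3.12 ± 1.33 overlapped *Hey1* at 1.96 ± 0.966, which overlapped *Notch4* at 1.37 ± 0.0744 and *Jag2* at 1.33 ± 0.329. *Dll1* was lowest at 0.365 ± 0.311. *Notch3* thus stood near *Jag2* in mESCs and near *Notch2* in CPCCs.

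The make-up of the receptor transcripts differed between the cell types mainly in *Notch3* and *Notch4*. Of the receptor sum per kilobase, *Notch1* made up 37.3% ± 3.12 in mESCs and 45.2% ± 4.29 in CPCCs (SD, n = 3 each). *Notch2* made up 21.8% ± 4.95 and 22.7% ± 2.14. *Notch3* went from 9.19% ± 1.94 to 26.6% ± 0.977, and *Notch4* from 31.7% ± 9.22 to 5.48% ± 1.42. The shares of *Notch1*, *Notch3* and *Notch4* did not overlap between the cell types, although for *Notch1* the highest mESC library (40.2%) and the lowest CPCC library (40.5%) were close. In CPM without regard to length, the receptors summed to 96.2, 80.4 and 86.9 in mESCs and to 187, 269 and 256 in CPCCs. The ligands summed to 35.4, 33.4 and 36.5 CPM in mESCs and to 363, 193 and 183 CPM in CPCCs. Among the CPCC libraries, S04 therefore had the lowest receptor sum and the highest ligand sum. *Jag1* made up 87.4% ± 2.19 of the ligand sum per kilobase in mESCs and 95.8% ± 1.40 in CPCCs. The targets summed to 25.3, 31.1 and 25.5 CPM in mESCs and to 47.0, 56.5 and 63.6 CPM in CPCCs, and *Hes1* made up 94.0% ± 1.56 and 83.3% ± 5.91 of their sum per kilobase.

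**Figure D3:**
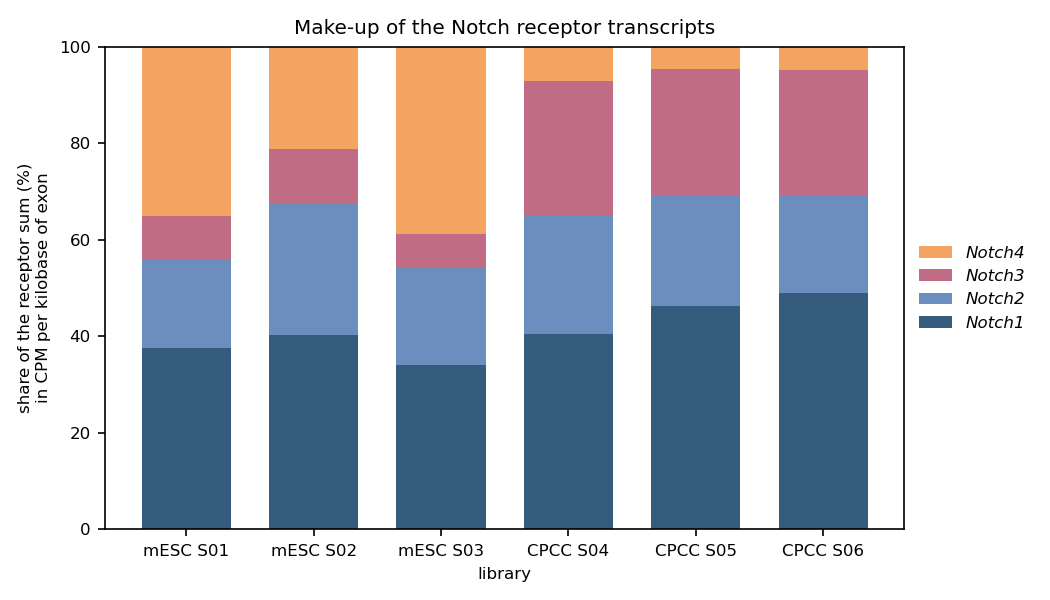
Share of each Notch receptor in the receptor sum of each library, in percent of the CPM per kilobase of exon. *Notch4* takes 21.2% to 38.7% in the mESC libraries and 4.51% to 7.11% in the CPCC libraries, and *Notch3* takes 7.21% to 11.1% and 25.9% to 27.7%.

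Ratios of 2 members within a library do not depend on its total, and 5 pairs were compared. *Notch3* counts per *Notch1* count were 0.208, 0.233 and 0.179 in mESCs and 0.578, 0.479 and 0.447 in CPCCs, a difference of 1.28 on the log2 scale. *Notch4* counts per *Notch1* count were 0.646, 0.366 and 0.790 in mESCs and 0.122, 0.0678 and 0.0685 in CPCCs, a log2 difference of −2.79. There were 9.86, 6.83 and 6.88 *Jag1* counts per *Jag2* count in mESCs and 40.5, 31.6 and 30.1 in CPCCs, a log2 difference of 2.13. These 3 ratios did not overlap between the cell types, and each had p = 0.1 in the two-sided exact permutation test, the smallest value that 3 against 3 allows (0.167 after Benjamini-Hochberg adjustment over the 5 pairs). *Jag1* counts were 207, 198 and 220 in mESCs, against 21, 29 and 32 for *Jag2*. *Notch2* to *Notch1* differed by −0.20 (exact permutation p = 0.5, adjusted 0.625), and *Hey1* to *Hes1* by 0.21 (exact permutation p = 0.8, adjusted 0.8), both with overlap. The *Hey1* to *Hes1* difference turned to −0.04 without S03 and to −0.23 without S05.

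**Figure D4:**
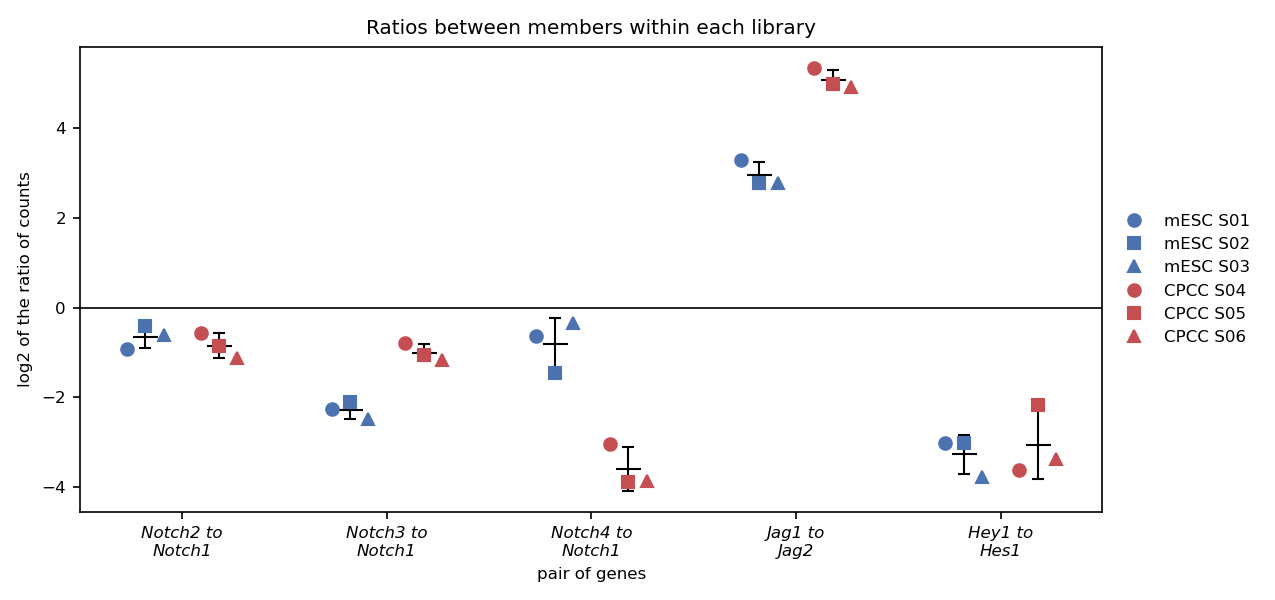
Log2 ratio of the counts of 2 members within each library, with the mean and SD of 3 libraries in black, mESC libraries in blue and CPCC libraries in red. *Notch4* to *Notch1* and *Jag1* to *Jag2* move apart between the cell types by −2.79 and 2.13, while *Notch2* to *Notch1* and *Hey1* to *Hes1* overlap.

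The remaining genes of the pathway were taken from a list of 52, of which 43 were tested. Of these, 22 were higher in CPCCs, 9 were lower and 12 did not pass, with a median log2 fold change of 0.80, beside 31.7% and 29.7% of all genes. *Dlk2*, *Lfng*, *Neurl1b* and *Hey2* were listed for CPCCs only, and *Dll4*, *Hes2*, *Hes3*, *Hes5* and *Hes7* for neither cell type. Among other ligands, 2 of 3 tested were higher. *Dlk1*, a ligand-like protein without the domain that activates Notch, was at 5.90, 12.4 and 9.84 CPM in mESCs and at 42.2, 27.6 and 39.7 CPM in CPCCs (log2 fold change 2.03, adjusted p = 0.000644 from edgeR). *Dner*, a neuronal Notch ligand, was at 0.442 to 1.30 CPM in mESCs and at 1.92 to 7.76 CPM in CPCCs (2.55, adjusted p = 0.0101). It lost its call without S05, at a log2 fold change of 2.05 (adjusted p = 0.0506). *Dlk2* was at least 4.54-fold higher in CPCCs.

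Of the 5 genes tested for receptor maturation and ligand affinity, 2 were higher and 2 lower. *Furin*, the convertase that cuts the receptor on its way to the surface, was at 9.003, 7.80 and 4.49 CPM in mESCs and at 52.6, 47.5 and 49.8 CPM in CPCCs (log2 fold change 2.88, adjusted p = 4.17e-05 from edgeR). The Fringe enzymes, which add sugars that set the preference for Delta-like over Jagged ligands, went different ways. *Mfng* was at 24.4, 21.6 and 25.9 CPM in mESCs and at 1.75, 2.12 and 7.08 CPM in CPCCs (log2 fold change −2.71, adjusted p = 0.0010046). *Lfng* was listed for CPCCs only, at 4.98, 10.6 and 10.4 CPM, which is at least 19.4-fold higher than the floor. The third, *Rfng*, did not pass (adjusted p = 0.175) and was named after its values were seen.

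Of the 9 cleavage genes, 7 were higher and 2 did not pass the threshold. They encode the ADAM proteases and the subunits of gamma-secretase. *Ncstn*, the subunit that receives the substrate, was at 38.7, 35.3 and 35.9 CPM in mESCs and at 98.6, 126 and 109 CPM in CPCCs (log2 fold change 1.66, adjusted p = 5.04e-05 from edgeR). *Aph1b* was at 1.09, 0.736 and 1.01 CPM in mESCs and at 37.7, 34.9 and 23.6 CPM in CPCCs (5.14, adjusted p = 8.91e-06). *Aph1b* and *Aph1c* are near-identical mouse copies, so the split of reads between them is uncertain. Of the 3 genes tested for ligand endocytosis, *Mib1*, a ubiquitin ligase of the ligands, was higher (log2 fold change 1.50, adjusted p = 0.00292), and *Mib2* was lower (−1.31, adjusted p = 0.00173). *Neurl1b* was at least 4.54-fold higher in CPCCs.

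Of the 7 genes of the nuclear complex, 3 were higher and 3 lower. *Maml3*, a Mastermind coactivator, was at 0.931, 0.442 and 0.290 CPM in mESCs and at 20.6, 27.8 and 36.5 CPM in CPCCs (log2 fold change 5.69, adjusted p = 9.33e-06 from edgeR). *Kat2b*, an acetyltransferase that works with the complex, was at 138, 127 and 179 CPM in mESCs and at 28.5, 20.9 and 26.3 CPM in CPCCs (−2.48, adjusted p = 2.56e-05). *Rbpj*, the DNA-binding partner of every Notch receptor, was named after its values were seen. It was at 160, 170 and 203 CPM in mESCs and at 118, 88.6 and 94.2 CPM in CPCCs (−0.75, adjusted p = 0.0104), so it was lower where *Notch1*, *Notch2* and *Notch3* were higher. Among 6 corepressors, 1 was higher and 2 lower. *Hdac1*, a histone deacetylase, was lower, at a log2 fold change of −1.95 (adjusted p = 4.56e-05).

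Of the 9 inhibitors and turnover factors, 5 were higher and 1 lower. *Dtx4*, a Deltex ubiquitin ligase, was at 0.466, 1.47 and 0.145 CPM in mESCs and at 16.7, 36.7 and 44.5 CPM in CPCCs (log2 fold change 5.55, adjusted p = 7.09e-05 from edgeR). *Dtx3* was at 6.83, 8.68 and 6.66 CPM and at 22.1, 47.8 and 42.9 CPM (2.38, adjusted p = 0.000177). *Nrarp*, a feedback inhibitor that Notch itself switches on, was named after its values were seen. It was at 2.79, 1.77 and 3.91 CPM in mESCs and at 7.43, 19.8 and 27.6 CPM in CPCCs (2.702, adjusted p = 0.00145). *Hes6*, the only other HES or HEY factor tested and known from neural progenitors, was at 11.8, 6.92 and 11.7 CPM in mESCs and at 23.3, 57.9 and 73.2 CPM in CPCCs (2.36, adjusted p = 0.000767). *Hey2*, which marks ventricular muscle, was listed for CPCCs only, at 6.12, 4.23 and 3.54 CPM, at least 10.4-fold above the floor.

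The CPCC libraries differed among themselves in a way that several of these genes shared. By CPM and after TMM scaling, S04 was the lowest CPCC library for *Notch1*, *Notch3*, *Dll1*, *Hey1*, *Heyl*, *Nrarp*, *Dtx4* and *Hes6*, and the highest for *Jag1*, *Jag2*, *Notch4* and *Hey2*. TMM scaling, the normalization used in the test, sets the *Jag1* levels of S04, S05 and S06 at 402, 192 and 169 CPM and those of *Notch1* at 89.7, 132 and 125.5 CPM. It also had the highest sums of cardiac (146 CPM), endothelial (36.1 CPM) and smooth muscle markers (9914 CPM) and the lowest sums of stem cell markers (112 CPM) and neural markers (505 CPM) of the CPCCs, and the largest total. The values of these genes were seen before they were set side by side, and the part of cell make-up in them was not tested. Without S04, all 6 members that passed the threshold passed it again.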

How the data were processed

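Bulk RNA-seq of 3 mESC and 3 CPCC libraries was used. Per the labels, RNA went into SMART-Seq v4 libraries, and the submitters' processing notes name STAR 2.7 and the build mm10. The authors deposited estimated counts of reads per gene, 1 table per cell type, neither normalized nor split by allele. The counter, its use of strand and its treatment of reads shared by similar genes are not given in the sources used here. Every gene listed has at least 10 counts over the 3 libraries of its table, so genes below that sum are missing from that table on their own. The start of 9166 of 15881 genes matched by symbol equals the RefSeq start on GRCm38, and the end of 9038 lies 1 base past the RefSeq end. Positions are printed as the tables give them.

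Counts were rounded to whole numbers. The 13001 genes in both tables were filtered with filterByExpr, which left 12471, and tested with edgeR 4.0.16 in R 4.3.3 (quasi-likelihood test, TMM normalization, library sizes over the shared genes, threshold 0.05 after Benjamini-Hochberg adjustment). Standard errors were derived as the size of the log2 fold change divided by the root of F. Fold changes come from this fit, and CPM in the text uses whole library totals without TMM. Floors and bounds use 3 counts per library. A bound is a ratio of means and makes no allowance for counting error or for the spread between libraries. Exon lengths are those of GENCODE on GRCm38. The study's own comparison used DESeq2, and DESeq2 1.42.0 was run here as an alternative, with upper-quartile scaling, library totals alone, other library sizes, filters and thresholds, missing genes set to 0 or 3 counts, and each library left out. On simulated counts of 13001 genes with 200 changed, 152 were found by edgeR, including 119 of the 120 with a change of 4-fold or more, and 7 false calls were made. The simulation gave every gene the same variability between libraries, and in the data 61.4% of the genes tested passed. These rates therefore check the code and do not give the power or error rate of the real test.

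The 10 members, the lists of other pathway genes and of markers, and the tests were chosen with earlier results of these data known. Named genes are all members, and of each role group the 2 tested genes with the smallest p and the genes missing from a table. Genes named outside this rule are marked in the text. One gene that the rule names is not reported here. Allele-specific and single-cell data were not analysed here.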

Additional observations from a re-analysis of the deposited data

How the results depend on the processing

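Of the members, *Notch1*, *Notch2*, *Notch3* and *Jag1* stayed past the threshold under every alternative run, with log2 fold changes of 1.59 to 1.86, 1.37 to 1.57, 2.81 to 3.03 and 2.55 to 3.26. *Notch4* ranged from −1.46 to −1.01 (adjusted p up to 0.0535, above the threshold without S01 or S03) and *Hes1* from 0.57 to 0.73 (adjusted p up to 0.0788, above it without S01 or S03, and under 2-fold in size). *Jag2* ranged from 0.53 to 0.98 and passed only with at least 10 counts in every library, and *Hey1* ranged from 0.44 to 1.12 and passed in none. Among the other pathway genes named, *Dner* lost its call without S05 (2.05, adjusted p = 0.0506). The cause of these changes was not tested. The log2 difference of *Hey1* to *Hes1* ranged from −0.23 to 0.50 with 1 library left out, and it was −0.04 without S03. The other 4 pairs kept their direction in all alternatives run. No paired analysis was possible because the columns of the tables carry no replicate numbers. With missing genes set to 0 or 3 counts, 9 members were tested and 7 passed. The added one was *Heyl*, whose mESC values were all filled in, so its pass is not a measured difference. Counts were low for *Hey1* and *Jag2*, with 53 and 82 over the 3 mESC libraries, and the part of depth in their results was not tested. *Dll1* and *Heyl* are listed for CPCCs only. *Dll1* had 34 counts over the CPCC libraries and was at the floor in S04.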
